A study of Xenopus laevis with 16 samples.

Results

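Notch signalling genes were read here across the 5 groups of an experiment on Xenopus laevis animal caps, pieces of prospective ectoderm cut from the blastula roof. The family was taken by gene symbol: every probe set whose symbol, leaving off the .L or .S that names the subgenome, was dll1, dlc, jag1, notch1, notch2, notch3, lfng, mfng, nrarp or hey1. That rule found 12 probe sets of 8 genes among 32539 probe sets tested and 11303 gene symbols. No probe set here carries the symbol notch2, notch3 or mfng, so 3 of the 10 symbols have no value, and the Hes genes were not part of the rule. The ligands are dll1.L with probe sets Xl2.14759.1.S1_at and Xl2.54916.1.A1_s_at, dlc.L with Xl2.68.1.S1_at and jag1.L with Xl2.11956.1.S1_at. The receptor is notch1.S with Xl2.1057.1.S1_at. The fringe genes are lfng.L with Xl2.54329.1.S1_at and Xl2.55313.1.A1_at and lfng.S with Xl2.1077.1.S1_at. The genes known to respond to the pathway are nrarp.S with Xl2.15331.1.S1_at and Xl2.56653.1.S1_at, and hey1.S with Xl2.15880.1.S1_s_at and Xl2.469.1.S1_at. The ending _s_at marks a probe set whose probes are shared by several transcripts, so these 2 can also read related transcripts.

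Notch receptors are bound by Delta and Jagged ligands on neighbouring cells, are then cut, and release an intracellular part that enters the nucleus and activates transcription with the protein RBPJ and Mastermind. Fringe enzymes add a sugar to the receptor and change which ligands it answers. Genes such as nrarp and the hey family are switched on by the pathway, and the product of nrarp holds it in check. In Xenopus ectoderm the pathway is known for spacing out primary neurons in the neural plate and multiciliated cells and ionocytes in the epidermis, where cells that make Delta keep their neighbours from taking the same fate.

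The experiment was made to find genes that Pax3 and Zic1, transcription factors of the neural plate border, act on. Embryos of 2 to 4 cells were injected with constructs for the hormone-inducible Pax3-GR, alone or with Zic1-GR, and were raised at 15 °C until stage 9. There were 3 biological replicates in each of 5 groups. Control caps were not injected and received neither drug nor hormone. Pax3 caps carried Pax3-GR, and Pax3/Zic1 caps carried Pax3-GR and Zic1-GR; both were given dexamethasone, the hormone that switches the constructs on, for 2 h from stage 10.5. The remaining groups carried the same constructs and hormone and were also given 0.1 mg/ml cycloheximide, which blocks translation, starting 30 min before the hormone. The treatment temperature was given as 23 °C for all 5 groups. All caps were lysed when sibling embryos were at stage 11.5 to 12. No group had injection, hormone or cycloheximide without the factors, so against control caps these cannot be told apart. How many caps went into a sample is not stated in the sources used here.

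Values are log2 expression per probe set as deposited, and a difference is given on the log2 scale with its SE from the limma fit, n = 3 samples a group. A probe set was called at an adjusted p under 0.05, with p adjusted over all 32539 probe sets of a comparison. Samples with one replicate number varied together. A fit with that number as a block, the blocked fit below, is therefore given for the Notch probe sets wherever it changed a call, and for other gene lists by its counts and the genes named. Intervals are 95% intervals of single probe sets and are not adjusted for the number tested. In whole caps, fewer cells of a type and less RNA per cell cannot be told apart.

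Of the probe sets of the injected factors, some followed the labels and others did not. The pax3.S probe set Xl2.49495.3.S1_x_at averaged 1.94 in controls, 5.91 in Pax3 caps and 6.90 in Pax3/Zic1 caps, and the zic1.S probe set Xl2.1796.1.S1_at averaged 7.14, 8.15 and 9.29. With the drug that zic1.S probe set averaged 8.87 in Pax3 caps, which carried no Zic1-GR, and 10.01 in Pax3/Zic1 caps. The other pax3.S probe set and 1 of 5 of pax3.L also rose over control in both groups, while the remaining 4 of pax3.L were not called in them. The other zic1.S probe set, Xl2.1796.1.S2_at, ran against the labels for added Zic1. It averaged 8.21 in controls, 9.13 with Pax3 alone and 8.56 with both factors, and 10.18 and 9.92 in these with the drug, and it was not called against control without the drug (adjusted p = 0.468 and 1.00). Which of these read the injected constructs was not given in the sources used here. A list of 20 ectoderm and epidermis genes had a mean level of 8.82 to 9.09 in the control samples and 7.49 to 8.79 in the others. The files hold no detection calls, so that no marker could be called absent. The 2 arrays of Pax3/Zic1 replicate 2 were averaged, and differed by at most 0.30 over the 12 probe sets. Pax3/Zic1 replicate 3 correlated with its own number at 0.43 to 0.51, below the 0.60 or more of every other pair of samples with one number.

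Across the comparisons, the lfng genes and dll1.L gave most of the calls. At equal factors dll1.L and lfng.S rose with cycloheximide in Pax3 caps and in Pax3/Zic1 caps, and lfng.L in the latter. In Pax3 caps the lfng.L differences were 1.58 and 1.43 and passed with the blocked fit alone. No family probe set passed the test of the interaction of added Zic1 with the drug. Against control caps, dll1.L fell in Pax3/Zic1 caps on its shared probe set Xl2.54916, and on Xl2.14759 with the blocked fit alone. The ligand gene jag1.L rose in Pax3/Zic1 caps with the drug. Of the genes that respond to the pathway, hey1.S passed with the blocked fit alone and nrarp.S in no comparison of either fit. No probe set of dlc.L was called, although its group means spanned 4.90 to 7.23.

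**Figure D1:**
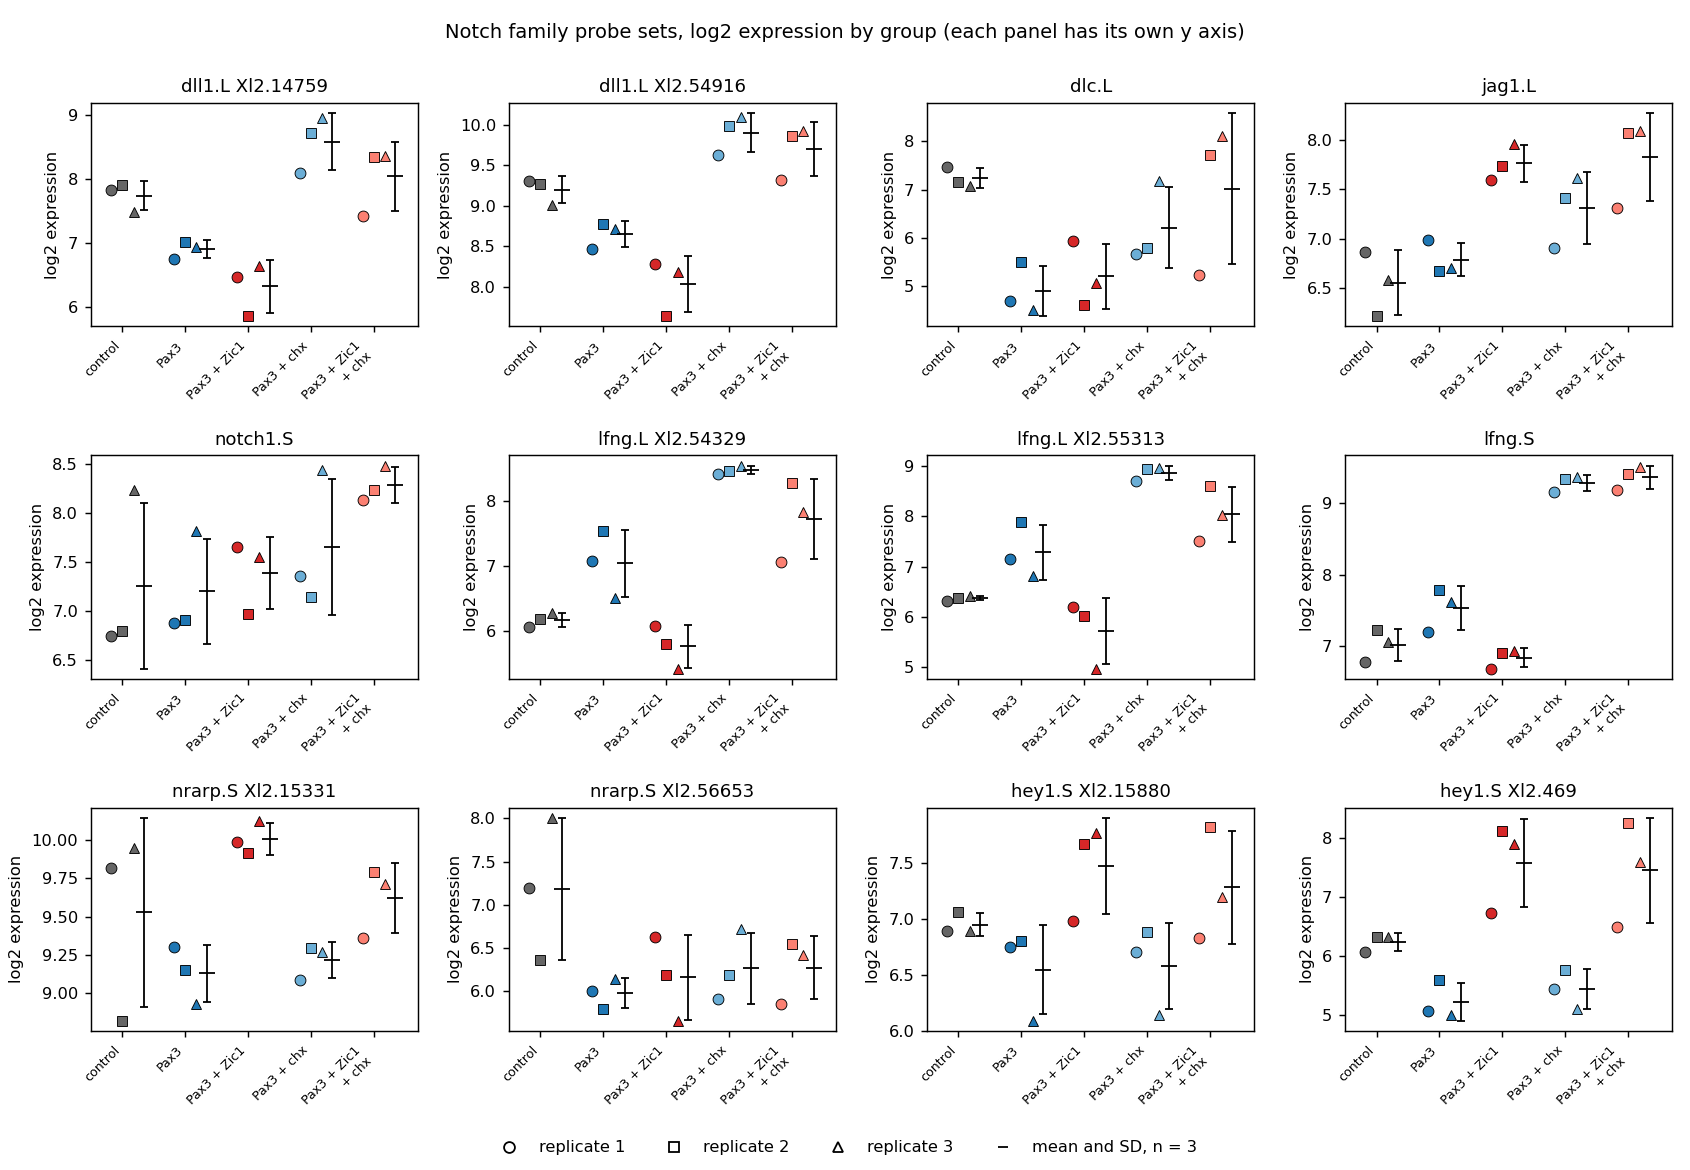
Log2 expression of each of the 12 Notch probe sets (y axis, a separate scale for each panel) in the 5 groups (x axis; chx is cycloheximide). Symbols are the samples of replicate 1, 2 and 3, and bars are the mean and SD of 3 samples. The lfng.S values with cycloheximide lie between 9.16 and 9.50, above all values without it, and both dll1.L panels have their lowest values in Pax3/Zic1 caps.

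The ligand gene dll1.L, which encodes Delta-like 1, had its lowest levels where both factors acted without the drug. On probe set Xl2.54916 the control samples 1, 2 and 3 were at 9.31, 9.27 and 9.01, the Pax3 samples at 8.46, 8.77 and 8.71, and the Pax3/Zic1 samples at 8.28, 7.63 and 8.18. With cycloheximide the Pax3 samples were at 9.63, 9.98 and 10.09 and the Pax3/Zic1 samples at 9.32, 9.87 and 9.92. Every sample with the drug was above every control sample, every Pax3 sample was below the controls, and every Pax3/Zic1 sample was below every Pax3 sample. The order of the means was 9.90 ± 0.24 (SD, n = 3) in Pax3 caps with the drug, 9.70 ± 0.33 in Pax3/Zic1 caps with the drug, 9.20 ± 0.16 in control caps, 8.65 ± 0.16 with Pax3 alone and 8.03 ± 0.35 with both factors. Only the first pair of neighbours in that order overlapped.

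The other dll1.L probe set, Xl2.14759, had the same order of means. Its control samples were at 7.84, 7.90 and 7.48, its Pax3 samples at 6.75, 7.02 and 6.95 and its Pax3/Zic1 samples at 6.48, 5.86 and 6.64. With the drug, Pax3 samples were at 8.09, 8.71 and 8.94 and Pax3/Zic1 samples at 7.42, 8.34 and 8.36. Here the Pax3/Zic1 samples with the drug overlapped the controls, because replicate 1 lay below all of them. Across the 15 samples the probe sets of this gene correlated at r = 0.98, as a description of values that share their arrays.

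Against control caps, dll1.L on probe set Xl2.54916 fell by 1.17 ± 0.21 in Pax3/Zic1 caps (limma adjusted p = 0.0319), lower in 3 of 3 replicate numbers. The call was lost without control replicate 1, 2 or 3 (adjusted p = 0.112, 0.130 and 0.0812), without Pax3/Zic1 replicate 2 or 3 (0.127 and 0.0892), without Pax3 replicate 3 (0.0542) and without replicate 2 of Pax3 caps with cycloheximide (0.0539). Here and below, leaving a sample of a group not compared out of the main fit kept the difference, here at -1.17. Such a fit changed the estimate of the spread that all groups share. Without Pax3/Zic1 replicate 2, its lowest sample, the difference was -0.97. With only the compared groups in the fit, the adjusted p was 0.223. Probe set Xl2.14759 differed by -1.41 ± 0.29 (adjusted p = 0.0633) and passed in the blocked fit (blocked adjusted p = 0.0113), and in the main fit without replicate 1 of Pax3/Zic1 caps with the drug (adjusted p = 0.0294).

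In Pax3 caps the differences from control were -0.55 (95% interval -1.01 to -0.10) and -0.84 (-1.47 to -0.20) on the 2 dll1.L probe sets, and neither passed in either fit (adjusted p = 0.797 and 0.636). Between Pax3/Zic1 caps and Pax3 caps they were -0.62 (-1.07 to -0.16) and -0.58 (-1.21 to 0.06), and again neither passed (adjusted p = 0.724 and 1.00). With cycloheximide, Pax3 caps differed from control by 0.70 ± 0.21 on Xl2.54916 (adjusted p = 0.122, blocked 0.0376) and by 0.84 ± 0.29 on Xl2.14759 (adjusted p = 0.208). Pax3/Zic1 caps with the drug differed from control by 0.50 and 0.30, and did not pass (adjusted p = 0.250 and 0.732).

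Between caps with the same factors, dll1.L rose with cycloheximide on both probe sets. In Pax3 caps the rise was 1.25 ± 0.21 on Xl2.54916 (adjusted p = 0.0158) and 1.68 ± 0.29 on Xl2.14759 (adjusted p = 0.0193). In Pax3/Zic1 caps it was 1.67 ± 0.21 (adjusted p = 0.00309) and 1.71 ± 0.29 (adjusted p = 0.0123). All 3 replicate numbers rose in each case, by 1.17 to 1.38 and by 1.04 to 2.23 on Xl2.54916, and no samples with and without the drug overlapped.

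Single samples decided some of these calls in the main fit, which had no block for the replicate number. For cycloheximide in Pax3 caps, the dll1.L call on Xl2.54916 was lost without Pax3 replicate 1 or 3 (adjusted p = 0.0667 and 0.0670) and without replicate 2 or 3 of the caps with the drug (0.0661 and 0.0742). On Xl2.14759 it was lost without any one Pax3 sample (0.0781, 0.0576 and 0.0889) and without replicate 2 or 3 of the caps with the drug (0.0795 and 0.0875). In Pax3/Zic1 caps the call on Xl2.14759 was lost without Pax3/Zic1 replicate 2 (0.0561) or replicate 3 with the drug (0.0654), and that on Xl2.54916 was kept without any one sample. With only the compared groups in the fit, the 4 adjusted p-values lay between 0.0898 and 0.217. None of these fits used the block, so variation shared by a replicate number stayed in their spread. With the block and without Pax3/Zic1 replicate 3, a setting chosen after seeing the data, the 4 calls were kept. The blocked adjusted p was 0.00298 on Xl2.54916 and 0.00264 on Xl2.14759 in Pax3 caps, and 0.00208 and 0.00524 in Pax3/Zic1 caps.

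The genes that ran most like dll1.L, by Pearson's r with probe set Xl2.54916 over the 15 samples, were rbbp8.L (r = 0.93), gadd45g.L (0.91), foxi1.L (0.91), bmp4.S (0.90) and znf750.L (0.90). With group means removed the same correlations were 0.37 to 0.63, and the samples share their arrays and replicate numbers. Among the family itself, lfng.S had r = 0.82, the lfng.L probe sets 0.79 and 0.80, and dlc.L 0.68 with that probe set.

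The ligand gene dlc.L, which encodes another Delta protein, had its highest mean in control caps and spread widely with the drug. Control samples were at 7.47, 7.17 and 7.06, Pax3 samples at 4.69, 5.5 and 4.51, and Pax3/Zic1 samples at 5.93, 4.61 and 5.07. With cycloheximide the Pax3 samples were at 5.68, 5.78 and 7.19 and the Pax3/Zic1 samples at 5.23, 7.72 and 8.10. Without the drug every injected sample lay below every control sample; with it both groups overlapped the controls, and replicate 1 with both factors and the drug lay below all controls while replicates 2 and 3 lay above them.

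For dlc.L no comparison passed in either fit. It differed from control by -2.33 ± 0.66 in Pax3 caps (95% interval -3.77 to -0.89, adjusted p = 0.333) and by -2.03 ± 0.66 in Pax3/Zic1 caps (-3.46 to -0.59, adjusted p = 0.352). By signed difference these were places 14 and 43 from the lowest of 32539 probe sets. The cycloheximide differences at equal factors were 1.31 (-0.12 to 2.75) in Pax3 caps and 1.81 (0.38 to 3.25) in Pax3/Zic1 caps, the latter positive in 2 of 3 replicate numbers (adjusted p = 0.534 and 0.231). Its neighbours in the order of group means all overlapped.

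The Jagged ligand gene jag1.L was higher where both factors acted. Control samples were at 6.87, 6.22 and 6.58, Pax3 samples at 6.98, 6.68 and 6.71, and Pax3/Zic1 samples at 7.59, 7.73 and 7.96. With the drug, Pax3 samples were at 6.90, 7.41 and 7.62 and Pax3/Zic1 samples at 7.31, 8.07 and 8.09. All Pax3/Zic1 samples, with and without the drug, lay above all control and Pax3 samples, while Pax3 samples with the drug lay above the controls and overlapped the Pax3 samples. The order of means was 7.83 ± 0.44 with both factors and the drug, 7.76 ± 0.18 with both factors, 7.31 ± 0.37 in Pax3 caps with the drug, 6.79 ± 0.17 in Pax3 caps and 6.56 ± 0.33 in control caps, and each neighbour in it overlapped the next.

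The gene jag1.L rose by 1.27 ± 0.25 in Pax3/Zic1 caps with cycloheximide against control (adjusted p = 0.0115), in 3 of 3 replicate numbers. The call was lost without control replicate 2 (adjusted p = 0.0534) or without replicate 3 of the caps with both factors and the drug (0.0545), and with only the compared groups in the fit (0.0974). Without the drug, Pax3/Zic1 caps differed from control by 1.21 ± 0.25 (adjusted p = 0.0603, blocked 0.0132). Leaving out replicate 1 of the caps with both factors and the drug brought that adjusted p to 0.0301. Pax3 caps differed from control by 0.23 (95% interval -0.30 to 0.77), and with the drug by 0.75 (0.22 to 1.29, adjusted p = 0.174).

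Added Zic1 gave a jag1.L difference of 0.97 without the drug (0.43 to 1.51, adjusted p = 0.342, blocked 0.0827) and of 0.52 with it (-0.02 to 1.05, adjusted p = 1.00). Every replicate number was higher with Zic1 in both settings. Cycloheximide gave 0.52 (-0.02 to 1.06) in Pax3 caps and 0.06 (-0.47 to 0.60) in Pax3/Zic1 caps, and neither passed in either fit.

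The receptor gene notch1.S differed widely between the replicates of a group. Control samples were at 6.74, 6.80 and 8.24, Pax3 samples at 6.88, 6.91 and 7.82, and Pax3/Zic1 samples at 7.65, 6.97 and 7.55. With the drug, Pax3 samples were at 7.36, 7.15 and 8.45 and Pax3/Zic1 samples at 8.14, 8.24 and 8.49. Replicate 3 was the highest of its group in all groups but Pax3/Zic1 caps, and only the caps with both factors and the drug had all 3 samples above 8.

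No notch1.S comparison passed in the main fit, and 2 passed with the block. Pax3/Zic1 caps with cycloheximide differed from control by 1.03 ± 0.43 (adjusted p = 0.258, blocked 0.0151), and from the same caps without the drug by 0.90 ± 0.43 (adjusted p = 0.390, blocked 0.0330). The first of these was positive in 3 of 3 numbers, from 0.25 in replicate 3 to 1.44 in replicate 2. The groups of the first comparison overlapped, and those of the second did not. Without Pax3/Zic1 replicate 3 the second was no longer past the threshold in the blocked fit (0.65, blocked adjusted p = 0.118), and without replicate 3 of every group the first passed without the block (1.42, adjusted p = 0.0330). Neighbours in the order of notch1.S means all overlapped, from 8.29 ± 0.18 with both factors and the drug to 7.20 ± 0.53 in Pax3 caps.

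The fringe gene lfng.S, the copy of lunatic fringe on the other subgenome from lfng.L, had the strongest tests of the family. Control samples were at 6.77, 7.22 and 7.05, Pax3 samples at 7.20, 7.79 and 7.62, and Pax3/Zic1 samples at 6.68, 6.89 and 6.92. With cycloheximide the Pax3 samples were at 9.16, 9.34 and 9.37 and the Pax3/Zic1 samples at 9.18, 9.41 and 9.50. All 6 samples with the drug lay above all 9 without it, and the 2 groups with the drug overlapped each other. The means ran from 9.37 ± 0.17 with both factors and the drug and 9.29 ± 0.11 in Pax3 caps with the drug to 7.53 ± 0.30 in Pax3 caps, 7.01 ± 0.23 in control caps and 6.83 ± 0.13 in Pax3/Zic1 caps; of the neighbours in that order, only Pax3 caps with and without the drug did not overlap.

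At equal factors, lfng.S rose with cycloheximide by 1.76 ± 0.17 in Pax3 caps (adjusted p = 0.000886), a ratio of 3.38, and by 2.53 ± 0.17 in Pax3/Zic1 caps (adjusted p = 3.32e-05), a ratio of 5.78. Against control, caps with the drug were higher by 2.27 ± 0.17 with Pax3 (adjusted p = 8.57e-05) and by 2.35 ± 0.17 with both factors (adjusted p = 3.00e-05). By p-value lfng.S took places 6, 3, 4 and 7 in these comparisons among 32539 probe sets. No single sample decided any of these calls. In Pax3 caps the call for the drug was lost with only the compared groups in the fit (adjusted p = 0.0701) and without replicate 2 or replicate 3 of every group (0.0540 and 0.0972).

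Without the drug lfng.S differed from control by 0.52 ± 0.17 in Pax3 caps (adjusted p = 0.516, blocked 0.0166) and by -0.18 ± 0.17 in Pax3/Zic1 caps (adjusted p = 1.00, blocked 0.372). Added Zic1 gave -0.70 ± 0.17 (adjusted p = 0.302, blocked 0.00683), by -0.51, -0.89 and -0.70 in replicates 1, 2 and 3, and the groups did not overlap. With the drug on both sides the same comparison gave 0.08 (95% interval -0.29 to 0.44, adjusted p = 1.00). The difference between these differences was 0.78 ± 0.24, with an unadjusted p of 0.00659 (blocked 0.000132), place 11 of all probe sets, and did not pass after adjustment (adjusted p = 1.00, blocked 0.881).

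The lfng.L probe sets were also highest with the drug. On Xl2.55313 control samples were at 6.33, 6.39 and 6.41, Pax3 samples at 7.16, 7.88 and 6.81, and Pax3/Zic1 samples at 6.19, 6.01 and 4.98. With cycloheximide, Pax3 samples were at 8.71, 8.94 and 8.96 and Pax3/Zic1 samples at 7.50, 8.59 and 8.03. Unlike on lfng.S, the 2 groups with the drug did not overlap, Pax3 caps being the higher, and every Pax3/Zic1 sample without the drug lay below every control sample.

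Probe set Xl2.54329 of lfng.L gave the same order of means. Its control samples were at 6.05, 6.18 and 6.27, its Pax3 samples at 7.07, 7.53 and 6.50 and its Pax3/Zic1 samples at 6.08, 5.79 and 5.42. With the drug, Pax3 samples were at 8.41, 8.46 and 8.54 and Pax3/Zic1 samples at 7.05, 8.27 and 7.83. Pax3/Zic1 caps overlapped the controls on this probe set, and the Pax3/Zic1 caps with the drug overlapped the Pax3 caps without it on both.

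Against control, lfng.L rose in Pax3 caps with cycloheximide by 2.49 ± 0.35 on Xl2.55313 (adjusted p = 0.00279) and 2.30 ± 0.30 on Xl2.54329 (adjusted p = 0.00174). It rose in Pax3/Zic1 caps with the drug by 1.67 ± 0.35 (adjusted p = 0.0166) and 1.55 ± 0.30 (adjusted p = 0.0112). No single sample decided the calls in Pax3 caps with the drug. They were lost without replicate 1, 2 or 3 of every group on Xl2.55313 (adjusted p = 0.0606, 0.0571 and 0.0567) and without replicate 3 of every group on Xl2.54329 (0.0681). The call on Xl2.55313 in Pax3/Zic1 caps with the drug was lost without any one control sample (adjusted p = 0.0573, 0.0543 and 0.0540) and without replicate 2 or 3 of the caps with both factors and the drug (0.0647 and 0.0552). With only the compared groups in the fit, that on Xl2.54329 was lost (0.0778).

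At equal factors, lfng.L rose with the drug in Pax3/Zic1 caps by 2.31 ± 0.35 on Xl2.55313 (adjusted p = 0.00673) and 1.95 ± 0.30 on Xl2.54329 (adjusted p = 0.00759), and no single sample decided these calls. With only the compared groups in the fit they were lost (adjusted p = 0.182 and 0.179). In Pax3 caps the differences were 1.58 ± 0.35 (adjusted p = 0.0626, blocked 0.00735) and 1.43 ± 0.30 (adjusted p = 0.0501, blocked 0.00852). These passed in the main fit without Pax3 replicate 2 (adjusted p = 0.0473 and 0.0415), without Pax3/Zic1 replicate 3 (0.0236 and 0.0467) or without replicate 1 of caps with both factors and the drug (0.0494 and 0.0214). Xl2.54329 also passed without Pax3/Zic1 replicate 1 (0.0495) or without replicate 2 with both factors and the drug (0.0358).

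Added Zic1 gave lfng.L differences of -1.56 ± 0.35 on Xl2.55313 (adjusted p = 0.228, blocked 0.0295) and -1.27 ± 0.30 on Xl2.54329 (adjusted p = 0.292, blocked 0.0532) without the drug. The blocked call was lost without Pax3/Zic1 replicate 3 (-1.23, blocked adjusted p = 0.0737). With the drug they were -0.83 (95% interval -1.58 to -0.07) and -0.75 (-1.41 to -0.10), and did not pass in either fit. In Pax3 caps without the drug lfng.L was 0.91 and 0.87 above control, with no overlap, and did not pass (adjusted p = 0.829 and 0.632).

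Of the genes known to respond to Notch, nrarp.S, whose small ankyrin repeat protein binds the nuclear Notch complex and lowers its output, had probe sets that disagreed. On Xl2.15331 control samples were at 9.81, 8.82 and 9.95, Pax3 samples at 9.30, 9.15 and 8.93, and Pax3/Zic1 samples at 9.98, 9.92 and 10.12; with cycloheximide the Pax3 samples were at 9.09, 9.30 and 9.27 and the Pax3/Zic1 samples at 9.36, 9.79 and 9.71. On Xl2.56653 the control samples were at 7.19, 6.36 and 8.0, and the other 12 samples at 5.65 to 6.71. Control replicate 2 was the lowest control sample on both probe sets.

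In Pax3/Zic1 caps nrarp.S differed from control by 0.48 on Xl2.15331 (95% interval -0.05 to 1.01, adjusted p = 0.809) and by -1.03 on Xl2.56653 (-1.85 to -0.20, adjusted p = 0.481), with opposite signs. Added Zic1 gave 0.88 (0.34 to 1.41, adjusted p = 0.441, blocked 0.120) without the drug and 0.40 (-0.13 to 0.94) with it on Xl2.15331. The groups overlapped in neither of these, whereas on Xl2.56653 the differences were 0.18 and 0.01 and the groups overlapped. Neither nrarp.S probe set passed in any comparison of either fit.

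The repressor gene hey1.S, a basic helix-loop-helix factor downstream of Notch, was higher with Zic1 than without it at equal drug. On Xl2.469 control samples were at 6.05, 6.32 and 6.31, Pax3 samples at 5.07, 5.59 and 5.0, and Pax3/Zic1 samples at 6.72, 8.11 and 7.89. With cycloheximide the Pax3 samples were at 5.43, 5.76 and 5.09 and the Pax3/Zic1 samples at 6.49, 8.25 and 7.59. All samples with Zic1 lay above all controls and all Pax3 samples lay below them, with and without the drug, and replicate 1 was the lowest of both groups with Zic1.

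Added Zic1 gave hey1.S differences of 2.35 ± 0.43 without the drug (adjusted p = 0.105, blocked 0.00463) and 2.02 ± 0.43 with it (adjusted p = 0.206, blocked 0.0107) on Xl2.469. By signed difference these were places 13 and 39 from the highest of 32539 probe sets, and each replicate number rose, from 1.65 to 2.89 and from 1.06 to 2.50. The main fit passed without Pax3/Zic1 replicate 1 in the first comparison (2.78, adjusted p = 0.0263) and without replicate 1 of the caps with both factors and the drug in the second (2.49, adjusted p = 0.0330). Against control, hey1.S differed by 1.34 ± 0.43 in Pax3/Zic1 caps (adjusted p = 0.326, blocked 0.0243) and by 1.22 ± 0.43 with the drug (adjusted p = 0.157, blocked 0.0133). The first blocked call was lost without Pax3/Zic1 replicate 3 (1.14, blocked adjusted p = 0.0917), and the second comparison passed in the main fit without replicate 1 of the caps with both factors and the drug (1.69, adjusted p = 0.0338).

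In Pax3 caps hey1.S on Xl2.469 was -1.01 from control (95% interval -1.93 to -0.08, adjusted p = 1.00, blocked 0.136), and -0.80 with the drug (-1.72 to 0.13, adjusted p = 0.482, blocked 0.0913). Cycloheximide at equal factors gave 0.21 (-0.71 to 1.14) in Pax3 caps and -0.13 (-1.05 to 0.80) in Pax3/Zic1 caps. The shared probe set Xl2.15880 had samples from 6.09 to 7.83, with differences for added Zic1 of 0.93 (0.28 to 1.58) and 0.71 (0.06 to 1.36), the same sign and a smaller size, and passed nowhere in either fit.

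**Figure D2:**
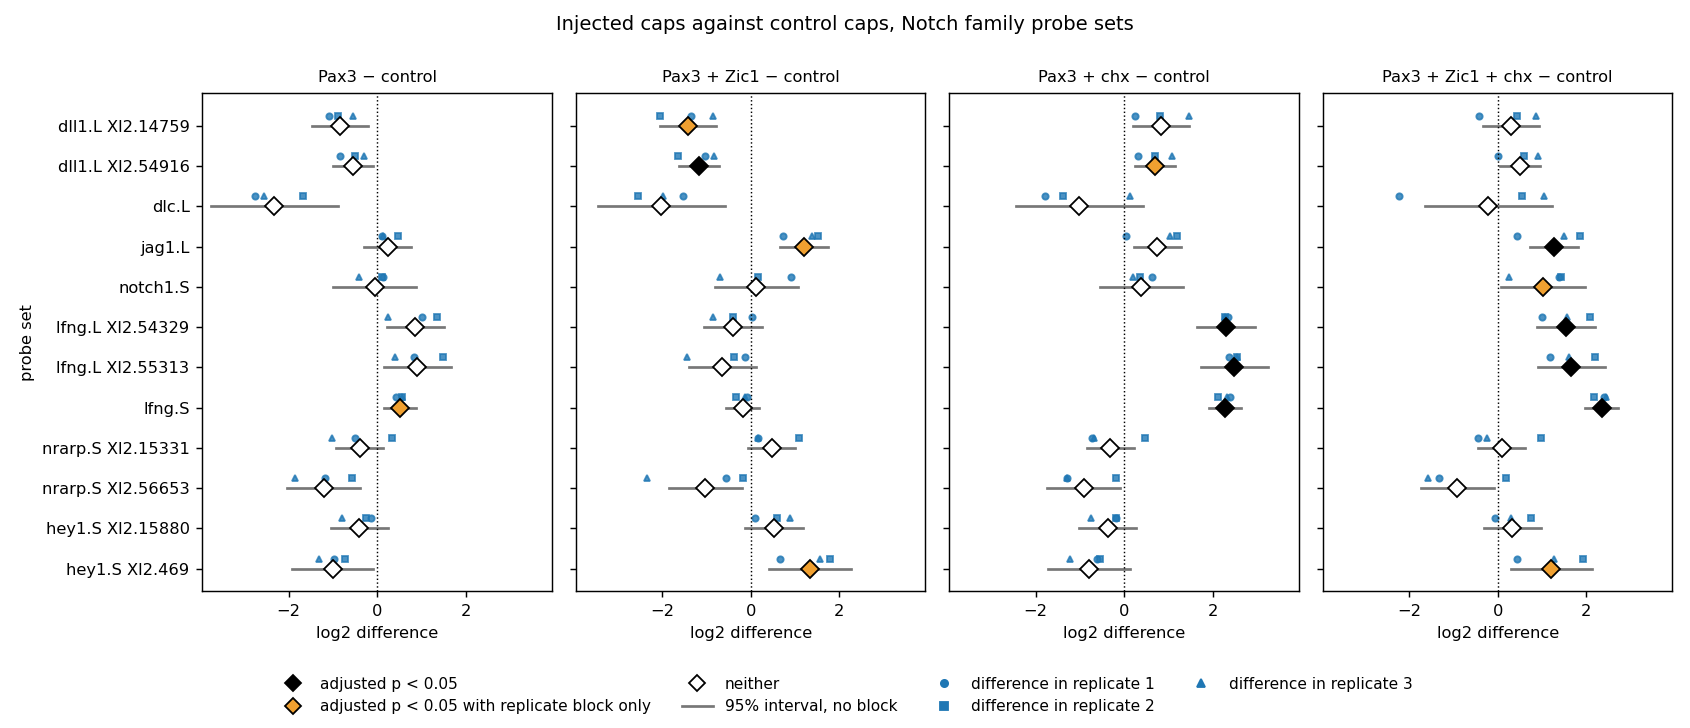
Log2 difference from control caps (x axis) for the 12 Notch probe sets (y axis) in the 4 injected groups. Diamonds are differences of group means, lines their 95% intervals in the fit without block, and small symbols the differences within replicate 1, 2 and 3; black marks an adjusted p under 0.05 and orange one in the blocked fit alone. The lfng probe sets are black in both panels with cycloheximide, and dll1.L on Xl2.54916 is the only black diamond without it.

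Counted over the family, Pax3 caps against control had no probe set of 12 called, where 0.286% of all probe sets were; 8 had an unadjusted p under 0.05, against 4.16% of all, and 1 passed in the blocked fit, against 2.14%. The groups did not overlap for 8 probe sets, 2 higher and 6 lower, against 7.96% of all. The median difference was -0.40 over the family and 0.02 over all probe sets. In Pax3/Zic1 caps against control, 1 probe set was called, lower, against 0.492% of all. With the block 4 were called, 2 of them lower, against 4.35%, and the groups did not overlap for 6, 2 higher and 4 lower, against 9.13%. The median differences were -0.29 and 0.00.

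With cycloheximide, Pax3 caps against control had 3 of 12 called, all higher, against 2.53% of all probe sets, and 4 with the block, against 14.9%. The groups did not overlap for 8, 6 higher and 2 lower, against 19.6%, and the median difference was 0.55 over the family and -0.03 over all. Pax3/Zic1 caps with the drug had 4 called, all higher, against 4.56%, and 6 with the block, against 18.9%. The groups did not overlap for 6, all higher, against 20.6%, and the medians were 0.76 and -0.03. All 4 comparisons share the same control samples, and several probe sets read the same gene, so that these counts are not independent of each other. The family probe sets lay at percentiles 66.3 to 96.8 of mean level. The shares over all, above and below, also cover dim probe sets and are not matched for level.

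**Figure D3:**
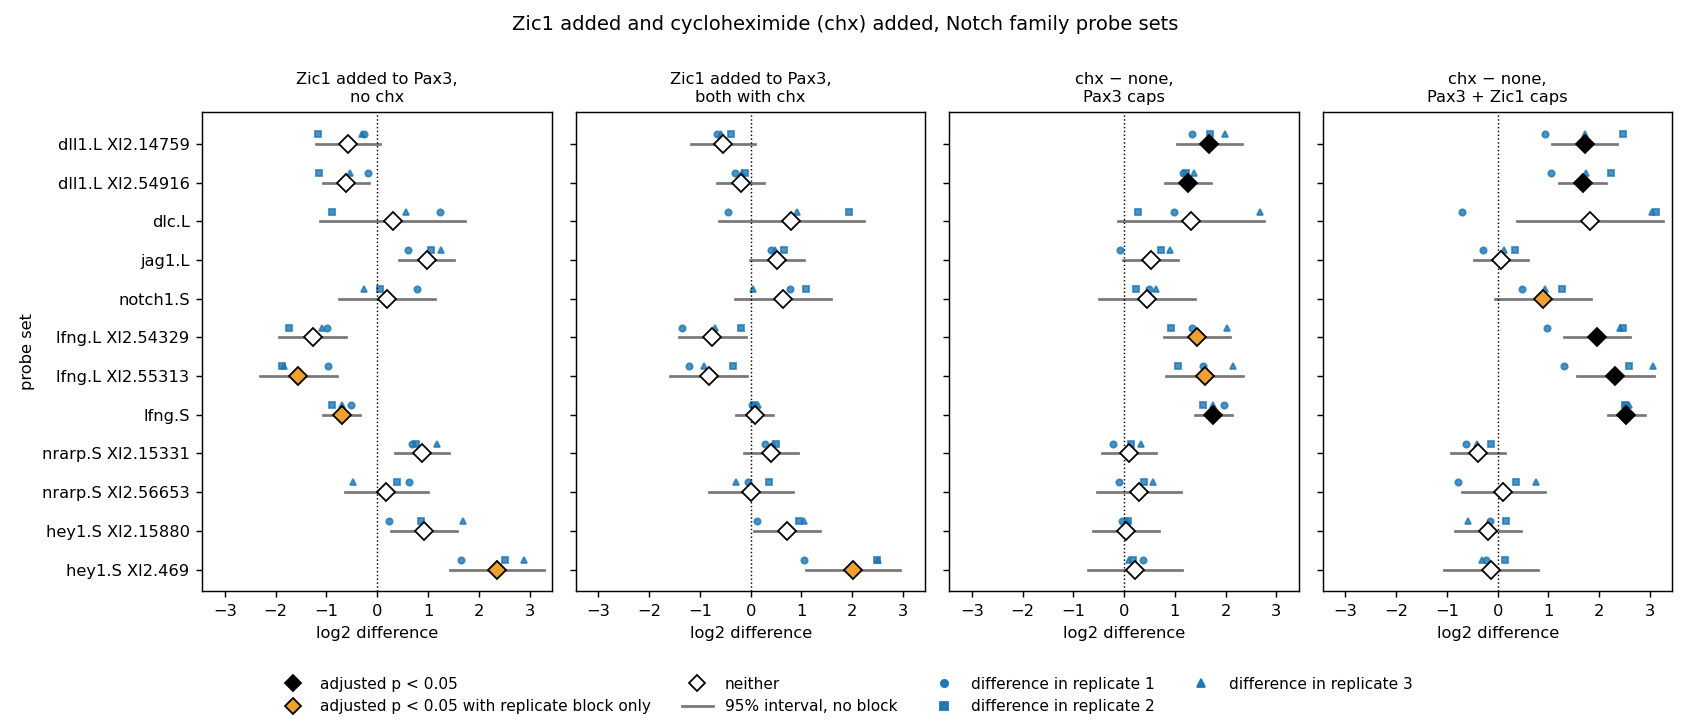
Log2 difference (x axis) for the 12 Notch probe sets (y axis) when Zic1 was added to Pax3, without and with cycloheximide (left panels), and when cycloheximide was added at equal factors (right panels); symbols and colours are as in the plot of differences from control. The dll1.L probe sets are black in both drug panels, and hey1.S on Xl2.469 is orange in both panels of added Zic1, at 2.35 and 2.02.

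When Zic1 was added to Pax3 without the drug, none of the 12 probe sets was called by limma, where 0.0184% of all were; 8 had an unadjusted p under 0.05, against 4.88% of all, and 3 were called with the block, 2 of them lower, against 1.12%. The groups did not overlap for 9, 4 higher and 5 lower, against 7.6%. With the drug on both sides none was called, against 0.0338%; 4 had an unadjusted p under 0.05, against 3.13%, and 1 was higher with the block, against 0.744%. There the groups did not overlap for 4, 2 higher and 2 lower, against 5.96%. The median differences over the family were 0.19 and 0.24, and 0.00 and -0.02 over all probe sets.

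Cycloheximide at equal factors gave 3 calls of 12 in Pax3 caps, all higher, against 0.87% of all probe sets, and 5 with the block, against 10.5%. In Pax3/Zic1 caps it gave 5, all higher, against 1.59%, and 6 with the block, against 16.4%. The groups did not overlap for 6 in Pax3 caps, all higher, against 16.6%, and for 7, 6 of them higher, in Pax3/Zic1 caps, against 15.4%. Median differences were 0.89 and 1.28 over the family and -0.03 and -0.04 over all. The interaction of added Zic1 with the drug gave 0 calls in either fit, for the family and for all probe sets; unadjusted p was under 0.05 for 1 member, lfng.S, against 0.593% of all (blocked, 1 member against 2.39%).

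Over these comparisons the family had 16 calls in the main fit. Leaving one replicate number out of every group, which left 2 samples a group, ended 6 of them without replicate 1, 12 without replicate 2 and 13 without replicate 3. The 3 calls kept without any one number were all of lfng.S: against control in both groups with the drug, and for the drug in Pax3/Zic1 caps. For dll1.L on Xl2.54916 in Pax3/Zic1 caps against control the adjusted p was then 0.0744, 0.584 and 0.309. For jag1.L in Pax3/Zic1 caps with the drug it was 0.308 without replicate 2 and 0.177 without replicate 3. Calls over all probe sets fell too, from 160 to 124, 0 and 2 in Pax3/Zic1 caps against control and from 517 to 168, 46 and 31 for the drug in Pax3/Zic1 caps.

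Other genes of the pathway were counted on a list of 37 further ligands, processing enzymes, co-activators, co-repressors and modulators. Of these 1 was called in 1 comparison, where 2.53% of all probe sets were, so that the count lies near the share over all. It was maml1.L, which encodes the co-activator Mastermind-like 1, and rose by 0.60 in Pax3 caps with cycloheximide against control (adjusted p = 0.0365). In the blocked fit the list had 1 gene higher in Pax3/Zic1 caps, against 4.35% of all probe sets, psen2.S of the presenilin that cuts Notch, at 1.84 (adjusted p = 0.0783, blocked 0.00433). With the block 4 of the 37 genes, 3 higher and 1 lower, passed in Pax3 caps with the drug, against 14.9% of all probe sets, and 7, 6 higher and 1 lower, in Pax3/Zic1 caps with the drug, against 18.9%, so that these counts lie near or below the share over all. Among these rbpj.S, the gene of the DNA-binding partner of Notch, was at 0.61 and 0.52 (adjusted p = 0.174 and 0.209, blocked 0.0236 and 0.0393), and fbxw7.L, whose product marks nuclear Notch for breakdown, at 1.10 and 1.66 (adjusted p = 0.332 and 0.0689, blocked 0.0264 and 0.00237). The list's median difference from control was 0.08 to 0.10 in the 4 comparisons, and -0.03 to 0.02 over all probe sets.

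The remaining blocked calls of that list were also in caps with the drug. In Pax3/Zic1 caps with the drug, psen2.S was at 1.26 (blocked adjusted p = 0.00973), furin.L, a protease that cuts the Notch precursor in mammals, at 1.12 (blocked 0.00583), crebbp.L, a histone acetyltransferase, at 0.56 (blocked 0.0414) and maml1.L at 0.41 (blocked 0.0193). The gamma-secretase subunit gene psenen.S was at -0.38 in each group with the drug (blocked 0.0307 and 0.0238). At equal factors the drug gave 4 blocked calls in Pax3/Zic1 caps, 3 higher and 1 lower and all of genes named above, against 16.4% of all probe sets, and none in Pax3 caps. For added Zic1 the list had 0 calls by limma with and without block. Of all probe sets 0.0184% and 0.0338% were called without and with the drug, and 1.12% and 0.744% with the block. The unadjusted p was under 0.05 for 1 gene without the drug, against 4.88% of all, and for 0 with it, against 3.13%. In the blocked fit it was under 0.05 for 4 and 2 genes. The share over all was not computed there, so that these counts have no reference.

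Genes of neuron formation, where Delta is known to act, were counted on a list of 23. Their mean level was 3.12 to 3.36 in the control samples and 3.11 to 3.65 in the others. The median level over all probe sets was 4.90. The zinc finger gene insm1.L rose by 2.57 ± 0.46 in Pax3 caps (adjusted p = 0.0434), by 3.61 ± 0.46 in Pax3 caps with the drug (adjusted p = 0.00158) and by 3.72 ± 0.46 in Pax3/Zic1 caps with the drug (adjusted p = 0.000773). In the last comparison ebf2.S, an EBF transcription factor gene, rose by 2.32 (adjusted p = 0.0313) and ncam1.S, a neural cell adhesion gene, fell by 0.75 (adjusted p = 0.0109). Of all probe sets 0.286% were called in Pax3 caps against control, and 2.53% and 4.56% in the groups with the drug. On the probe set with the highest mean, the other 20 genes of the list were not called in any comparison of the main fit. With every probe set counted, there were 4 calls higher in Pax3 caps with the drug. In Pax3/Zic1 caps with the drug 3 were higher and 1 lower. For cycloheximide in Pax3 caps 1 was higher, against 0.87% of all probe sets. With values this low, a lack of calls does not show a lack of change. With the block 2 of the 23 passed in Pax3 caps, against 2.14% of all probe sets, 5 in Pax3/Zic1 caps, against 4.35%, and 4 and 8 with the drug, against 14.9% and 18.9%. Those of Pax3/Zic1 caps were insm1.L at 1.90 (adjusted p = 0.122, blocked 0.00322), ebf2.S at 1.81 (blocked 0.00291), myt1.S at -1.51 (blocked 0.00908), isl1.S at -0.67 (blocked 0.0495) and ncam1.S at -0.49 (blocked 0.0310). Added Zic1 gave ebf2.S differences of 1.67 without the drug (adjusted p = 0.686, blocked 0.0115) and 1.82 with it (adjusted p = 0.710, blocked 0.0100). The list's median difference lay between -0.07 and 0.10 in all 9 comparisons.

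Markers of other cells moved in the same comparisons as dll1.L and lfng. Over 11 endoderm genes, sox17, gata and mixer genes among them, the mean level ran from 3.46 to 4.58 in control samples, from 3.87 to 5.13 in the injected groups without the drug, and from 5.18 to 6.49 with it. With the drug 6 of the 11 were called higher than control in each group, against 2.53% and 4.56% of all probe sets called in either direction: both copies of sox17a and sox17b.1, gata4.L and gata5.L, by 2.22 to 5.94. Without the drug none was called by limma, against 0.286% and 0.492% of all probe sets. In Pax3 caps 4 had an unadjusted p under 0.05, against 4.16% of all. With both factors 2 did, and the share over all was not computed there. The block gave calls in both groups. In Pax3 caps 4 were higher with the block, sox17b.1.S at 3.53, gata5.L at 2.71, sox17a.S at 2.44 and sox17a.L at 1.45, and 1 lower, a2m.S at -0.79, against 2.14% of all probe sets. With both factors 2 were higher in the blocked fit, gata4.L at 1.67 and gata5.L at 1.76, against 4.35%.

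Over 8 mesoderm genes the mean level ran from 2.84 to 4.28 in control samples. It ran from 3.13 to 3.72 in Pax3 caps and from 3.35 to 4.21 in these with the drug. In Pax3/Zic1 caps it ran from 3.5 to 4.94, and from 3.53 to 5.7 in the same caps with the drug. In the latter myod1.S and wnt8a.L were called higher, by 2.90 and 3.41, where 4.56% of all probe sets were called. Without the drug they were, in Pax3/Zic1 caps, at 3.06 and 2.91 and passed with the block alone (blocked adjusted p = 0.00541 and 0.0190). There 4.35% of all probe sets passed with the block. In Pax3 caps with the drug myf5.L was called, by 2.76, where 2.53% of all probe sets were. The rise was not shared by the whole list. Its median difference from control was -0.20 in Pax3 caps and 0.19 in Pax3/Zic1 caps, and -0.03 and 0.68 with the drug. The gene tbxt.S averaged 5.74 in control caps and 5.02 over all samples, and tbxt.L was also higher in control caps than over all samples. No mesoderm gene was called lower than control in either fit.

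The 5 ionocyte genes had means of 6.07 to 7.13 in control samples, 5.35 to 6.14 without the drug and 6.15 to 7.08 with it. Of these foxi1.L, a regulator of ionocytes in this epidermis, fell by 1.07 in Pax3/Zic1 caps (adjusted p = 0.0478) and rose by 1.93 and 1.86 with the drug (adjusted p = 0.000638 and 0.000434). Of all probe sets 0.492% were called in Pax3/Zic1 caps against control, and 2.53% and 4.56% in the groups with the drug. The ionocyte gene ubp1.L passed with the block alone, at -2.57 in Pax3 caps, -2.86 in Pax3/Zic1 caps and -1.81 in Pax3/Zic1 caps with the drug, and atp6v0d2.L at -0.78 in the last of these. With the block 2.14%, 4.35% and 18.9% of all probe sets passed in these comparisons.

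The 10 genes of multiciliated cells had means of 6.08 to 6.67 in control samples and 4.75 to 6.29 in all others. None was called higher against control in either fit. With the drug 2 were called lower in each group, foxn4.S and mcidas.S with Pax3 and myb.S and ccno.L with both factors, against 2.53% and 4.56% of all probe sets. With the block 3 of 10 were lower in Pax3 caps, against 2.14% of all, 5 in Pax3/Zic1 caps, against 4.35%, and 6 in each group with the drug, against 14.9% and 18.9%. Without the drug these included foxj1.S, at -1.94 and -1.84, and rfx2.S, at -0.99 and -1.25.

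The 4 genes of goblet and small secretory cells ran from 3.97 to 4.82 in control samples and from 3.87 to 6.12 in the others. Here foxa1.L was called higher in Pax3 caps and in both groups with the drug, by 3.56 to 4.09, and in Pax3/Zic1 caps it was at 2.56 and passed with the block (adjusted p = 0.130, blocked 0.000653). The other copy, foxa1.S, passed with the block alone in all 4 groups, at 0.91 to 2.68. The gene itln1.L was called lower in both groups with the drug, and without it was at -2.55 and -2.58 and passed with the block (blocked adjusted p = 0.00513 and 0.00361). Of all probe sets 0.286% were called in Pax3 caps against control, and 2.53% and 4.56% in the groups with the drug. With the block 2.14% and 4.35% passed without the drug, and 14.9% and 18.9% with it.

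Of the 20 ectoderm and epidermis genes 0 were called by limma in the groups without the drug, against 0.286% and 0.492% of all probe sets. There 3 had an unadjusted p under 0.05 in Pax3 caps, against 4.16% of all. With both factors 5 did, but the share over all was not computed, so that this count has no reference. With the block 0 and 2 were lower there, against 2.14% and 4.35%. The list's median difference from control was -0.40 in Pax3 caps and -0.51 in Pax3/Zic1 caps, and 0.02 and 0.00 over all probe sets. In these groups with the drug it was -0.36 and -0.24, and -0.03 in each over all probe sets. With the drug 3 and 6 were called lower, against 2.53% and 4.56%. These were krt12.4.L, krt12.5.S and krt18.1.L in both groups, and krt12.4.S and both copies of dlx3 with both factors. In the blocked fit 8 and 9 were lower with the drug, against 14.9% and 18.9%. The part of these cell types in the values of the Notch genes was not tested.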

How the data were processed

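Per the labels, RNA of 15 biological samples, 3 in each of 5 groups, was hybridised to Affymetrix Xenopus arrays, 16 in all, from 10 µg labelled with biotin. The deposited value of a probe set is its log2 expression, a base taken from the values (0.80 to 13.25, array means 4.96 to 4.99); the submitters' processing notes name R 2.14.2, and the background, normalization and summary steps were not given in the sources used here. Of 32635 probe sets 96 Affymetrix controls were left out. The platform's annotation in GEO gave 1 symbol for 15495 probe sets, several for 279 and none for 16765. Through gene identifiers 15384 of them were found in the RefSeq table of assembly Xenopus_laevis_v10.1, which changed 2. Coordinates and sequences were not used here.

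Group means of all samples were fitted with limma 3.58.1 in R 4.3.3 (with data.table, version 1.17.8; residual degrees of freedom 10, prior 2.17), two-sided, with Benjamini-Hochberg adjustment over 32539 probe sets in each of 9 comparisons: the 4 injected groups against control, Zic1 added to Pax3 and cycloheximide added, each in both settings, and their interaction. The number of arrays limits the precision. The fit was tested on simulated data with independent samples. These lacked the shared variation of samples with one replicate number, so the test does not show how the fit does with it.

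With group means removed, samples of one replicate number correlated at 0.43 to 0.86 (median 0.73), and all 15 correlated best with their own number, so that the numbers were taken as pairs and the blocked fit added (degrees of freedom 8, prior 3.40). What a number stands for was not given in the sources used here.

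Named were all family probe sets, with values per sample for those past the threshold in either fit (those of dlc.L and nrarp.S were added after their values were seen), every pax3 and zic1 probe set as a check, called members of 8 lists (other Notch pathway genes, neuron formation, ectoderm and epidermis, multiciliated cells, ionocytes, goblet and small secretory cells, mesoderm, endoderm) and the 5 genes most like dll1.L. A listed gene stood for its probe set with the highest mean. The family and the lists were chosen with earlier results of these data known. Alternatives were the block, trend and robust variance, only the compared groups, either array of the repeated sample, a filter on dim probe sets, added quantile normalization or median centring, and leaving out each sample or replicate number. Fits that left out samples had no block, except where a blocked value is given.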

Additional observations from a re-analysis of the deposited data

Results flagged for a closer look

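For lfng.S and added Zic1, the 3 replicate numbers all had one sign without cycloheximide and all the other sign with it, which marked this gene for a closer look. Without the drug, Pax3/Zic1 caps differed from Pax3 caps by -0.70, with all 3 replicate numbers lower (-0.51, -0.89 and -0.70). With the drug on both sides the same comparison gave 0.076, with all 3 higher (0.02, 0.07 and 0.14). The 95% interval was -0.29 to 0.44 and the groups overlapped, so that no effect of added Zic1 was shown in caps with the drug. The test of the difference gave 0.78 ± 0.24 with an unadjusted p of 0.00659 in limma (blocked 0.000132), and it did not pass over all probe sets (adjusted p = 1.00, blocked 0.881). Groups of 3 samples were too small for the check for single outlying samples.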

How the results depend on the processing

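With the replicate number as a block, the count of family probe sets called rose from 0 to 1 in Pax3 caps and from 1 to 4 in Pax3/Zic1 caps against control, from 0 to 3 and from 0 to 1 for added Zic1 without and with cycloheximide, and from 3 to 5 for cycloheximide in Pax3 caps. It changed no call of a family probe set other than those given above, and ended none. With the block and without Pax3/Zic1 replicate 3, the counts were 2, 3, 7 and 7 for the 4 comparisons with control. They were 2 and 1 for added Zic1, and 5 for cycloheximide in Pax3 caps. That setting was chosen after seeing the data. Over all probe sets it gave 1028, 977, 6915 and 8326 calls in the comparisons with control. For added Zic1 it gave 263 and 415, and for cycloheximide in Pax3 caps 5660. With only the compared groups fitted, the family counts against control fell to 0 in Pax3/Zic1 caps and to 2 in these with the drug. For cycloheximide the family counts fell to 0 in Pax3 caps and to 1 in Pax3/Zic1 caps. Over all probe sets these 4 counts fell from 160 to 11, 1483 to 617, 283 to 0 and 517 to 20. With the filter on dim probe sets, cycloheximide in Pax3 caps gave 5, where 256 of all probe sets kept by the filter were called. In the 18 fits that left out a sample or a replicate number, the counts ran from 0 to 0, 0 to 3, 1 to 3 and 1 to 5 against control, 0 to 1 and 0 to 1 for added Zic1, 0 to 5 and 1 to 6 for cycloheximide, and 0 to 0 for the interaction. Calls over all probe sets ran from 0 to 122, 0 to 376, 137 to 942 and 439 to 1632 against control. For added Zic1 they ran from 0 to 68 and 1 to 47, and for cycloheximide from 6 to 363 and 31 to 1308. The causes of these shifts were not tested. Of 30 named results, none changed sign in any of the 10 other settings or the 18 fits. Of the 30, 16 were calls of the main fit, and the rest passed with the block alone. Among the leave-out values 56 lost the call, each a value of one of the 16 calls, and 15 values of the rest gained one. The lfng.S calls against control in both groups with the drug, and for the drug in Pax3/Zic1 caps, were lost in no fit. The 469 values that stayed on their side of the threshold include those of the rest that stayed uncalled. Median centring moved the median of all probe sets by -0.067 to 0.030, and quantile normalization by -0.0084 to 0.016. Under both, hey1.S on Xl2.15880 changed sign for cycloheximide in Pax3 caps (0.03 to -0.0047 and -0.014), and under the latter dll1.L on Xl2.14759 did in the interaction (0.03 to -0.0093); neither was called. When every probe set was counted, the neuron formation list had 4 calls in place of 1 in Pax3 caps with the drug, and the ectoderm list 9 in place of 6 with both factors and the drug. Signal over background could not be assessed without detection calls.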
